A study of Homo sapiens with 18 samples.

Results

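ERα binding was compared between MLL3 knockdown and control cells through the 4 ERα ChIP-seq samples among the 18 samples of the series. All came from ZR751 (ZR75-1), an estrogen receptor positive breast cancer line in which MLL3 is not mutated. ZR751shMLL3 cells carried an integrated lentivirus that expressed a hairpin targeting MLL3, and the control ZR751shLucif cells one with a luciferase hairpin. Both were sorted for GFP, used at early passages and grown in serum with insulin, and MLL3 was targeted by 1 hairpin. Chromatin was immunoprecipitated with an antibody to ERα in 2 replicates of each cell line, and the authors called peaks with SPP in each sample separately. The 4 lists hold 156481 peaks in ZR751shLucif replicate 1 and 299403, 300000 and 299479 in ZR751shLucif replicate 2 and ZR751shMLL3 replicates 1 and 2. Signal values are scaled differently in each list, so peaks were used by their rank within a list, with 1 for the highest signal, and with equal numbers of top-ranked peaks per sample. A low rank number is a strong peak.

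ERα is a nuclear receptor that binds DNA as a dimer, and its palindromic estrogen response element is made of inverted GGTCA arms with a short spacer. In luminal breast cancer cells ERα mostly binds at enhancers far from promoters, often where FOXA1 has opened the chromatin. MLL3, the product of KMT2C, is a methyltransferase that places H3K4me1 at enhancers within a coregulator complex that nuclear receptors can recruit. The comparison asked whether ERα lies at other places in the genome when MLL3 is reduced.

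In the RNA-seq samples of these cells, ZR751shLucif had 2.34 and 6.77 FPKM of KMT2C, and ZR751shMLL3 had 1.07 and 2.69. The cell lines thus overlapped in these FPKM values of the targeted gene. The paper checked the knockdown separately, by qPCR of MLL3 in 3 biological replicates, and reports a significant difference. The qPCR values were not analysed here, and the overlap in FPKM does not show that the knockdown failed. For ESR1, the gene of ERα, ZR751shLucif had 11.2 and 14.2 FPKM and ZR751shMLL3 12.1 and 10.8. The 7 luminal markers summed to 12286 and 4769 FPKM in ZR751shLucif and to 10722 and 9249 in ZR751shMLL3. The 4 basal or mesenchymal markers summed to 0.119 to 0.566 FPKM and the 3 blood markers to 0.0200 to 0.0798 over the same samples.

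The 4 ERα lists differed in contrast. The signal at rank 100 was 1.75 times that at rank 5000 in ZR751shLucif replicate 1 and 1.90 times in ZR751shMLL3 replicate 2. It was 7.30 times in ZR751shLucif replicate 2 and 5.40 times in ZR751shMLL3 replicate 1. Chromosome 1 held 23.3 and 23.1% of the 5000 top-ranked peaks in the latter pair, against 11.3 and 8.98% in the former. Each cell line therefore holds 1 sample of either kind. Of the first 500 peaks, ZR751shLucif replicate 2 shared 295 with ZR751shMLL3 replicate 1, while 131 were shared between the ZR751shLucif replicates and 191 between the ZR751shMLL3 replicates. The peak lists hold nothing that checks a sample's label, so whether these samples are labelled correctly was not tested, and every comparison of the cell lines rests on the labels. By the sample descriptions, ZR751shLucif replicate 2 belongs to another library series than the other 3 samples, so values within 1 series compare ZR751shLucif replicate 1 with both ZR751shMLL3 replicates. The inputs of the cell lines also belong to different series. With 2 samples against 2, an exact permutation test cannot give a two-sided p below 0.333.

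Of the 10 sites with the best mean rank, 4 held the exact ERα palindrome, 5 a match with 1 mismatch and 1, near CYP2A7, a match with 2. Shown here are the strongest sites over all samples, then sites at estrogen-responsive genes, then sites that ranked high in 1 cell line, in 41 bases of the GRCh37 (hg19) plus strand. Capitals mark the best match to the palindrome GGTCANNNTGACC. It is exact at MED13L, S100G, ZNF236, SIAH2, DNAH14, HPSE2, DNAJC15 and PLOD2, and has 1 mismatch at TPBG, RARA, GREB1 and IGFBP4. The sites were picked to show the element. Sites with 2 to 4 mismatches are not printed, among them CTSD and those near NOD2, RAPGEF6, NUDCD1, PLEKHA6, CDYL2, FAM184A, ZNF595 and PAPPA2, which ranked high in 1 cell line.
MED13L, chr12:116828371-116828411: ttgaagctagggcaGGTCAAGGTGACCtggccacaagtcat
S100G, chrX:16680614-16680654: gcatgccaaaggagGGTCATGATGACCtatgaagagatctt
TPBG, chr6:83279917-83279957: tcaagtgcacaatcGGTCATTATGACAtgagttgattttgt
ZNF236, chr18:74398965-74399005: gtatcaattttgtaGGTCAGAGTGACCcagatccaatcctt
RARA, chr17:38478730-38478770: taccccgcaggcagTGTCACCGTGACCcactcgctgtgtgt
SIAH2, chr3:150474417-150474457: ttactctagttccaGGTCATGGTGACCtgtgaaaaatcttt
GREB1, chr2:11638841-11638881: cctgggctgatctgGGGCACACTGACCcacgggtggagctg
IGFBP4, chr17:38605106-38605146: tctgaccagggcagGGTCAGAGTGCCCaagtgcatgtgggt
DNAH14, chr1:225091853-225091893: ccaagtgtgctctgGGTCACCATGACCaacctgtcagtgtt
HPSE2, chr10:100760355-100760395: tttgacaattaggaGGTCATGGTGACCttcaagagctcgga
DNAJC15, chr13:43724173-43724213: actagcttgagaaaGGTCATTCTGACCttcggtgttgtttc
PLOD2, chr3:145812037-145812077: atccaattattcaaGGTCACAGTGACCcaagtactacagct

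Merging the first 100 peaks of each list gave 188 regions, of which 33 were in all 4 lists and 83 in 1 list. Another 14 were in both ZR751shLucif lists alone and 14 in both ZR751shMLL3 lists alone. The 10 sites of best mean rank are described next, and since they were chosen over all 4 samples, a high rank in both cell lines is fixed by that choice. An intergenic site 112990 bp from the nearest start site of MED13L, a Mediator subunit, was at rank 1 in all 4 samples. The site 12454 bp from S100G, a calcium-binding protein, in an intron of a neighbouring gene, was at ranks 23 and 9 in ZR751shLucif and at rank 2 in both ZR751shMLL3 samples. The site near TPBG, an oncofetal membrane glycoprotein, was at ranks 3 and 4 in ZR751shLucif and at 6 and 14 in ZR751shMLL3. Another, 404430 bp from MYC, was at ranks 7 and 6, and at 5 and 9. The intronic RARA site, in the gene of retinoic acid receptor alpha, was at ranks 6 and 18 in ZR751shLucif and at 7 and 37 in ZR751shMLL3. The remaining 5 of the 10 best sites lay near FUT10, CYP2A7, TOMM20, ATRNL1 and ZNF236. Of the 10 sites, 7 were intergenic and 3 were in introns, and none lay at a promoter. Rank differed most between samples at the CYP2A7 site, at ranks 70, 2, 4 and 19 in ZR751shLucif replicates 1 and 2 and ZR751shMLL3 replicates 1 and 2.

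Peaks further down a list were found in another sample far less often. A peak was counted as found where the other list had, within its first 5000 peaks, a summit at most 200 bp away. Of the 100 top-ranked peaks of ZR751shLucif replicate 1, 88% were found in ZR751shLucif replicate 2, and 85 and 65% in ZR751shMLL3 replicates 1 and 2. All 100 top-ranked peaks of ZR751shLucif replicate 2 were found in ZR751shMLL3 replicate 1, and 88% in ZR751shLucif replicate 1. Among ranks 101 to 500, 74.0% of the peaks of ZR751shLucif replicate 2 were found in ZR751shMLL3 replicate 1 and 27.3% in its own replicate. For ZR751shMLL3 replicate 1 the values at these ranks were 83.3% in ZR751shLucif replicate 2 and 41.8% in its own replicate. In ZR751shLucif replicate 1 and ZR751shMLL3 replicate 2, no more than 16.5% of the peaks at ranks 101 to 500 were found in any other list. Beyond rank 2000, no pair of lists shared more than 3.17% of the peaks.

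**Figure D1:**
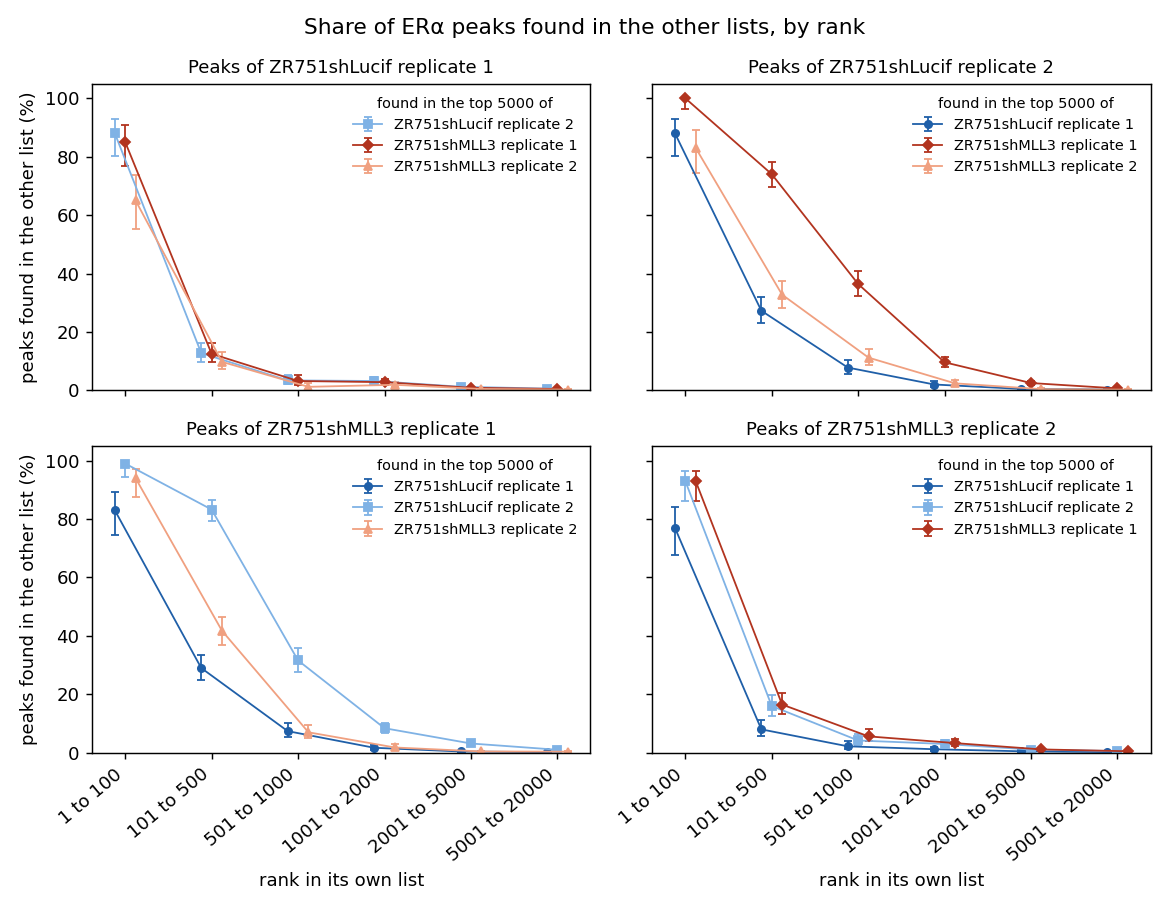
Share of the peaks of each ERα list (1 panel per sample) that were found among the 5000 top-ranked peaks of each other list (points), by rank in its own list, with 95% Wilson intervals for counting error. Sharing falls from 65 to 100% at ranks 1 to 100 to 3.17% or less beyond rank 2000, and at ranks 101 to 500 it is highest between ZR751shLucif replicate 2 and ZR751shMLL3 replicate 1, which are different cell lines.

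Merging the 5000 top-ranked peaks of the 4 lists gave 18473 regions, of which 17789 (96.3%) came from 1 list alone and 127 (0.687%) from all 4. ZR751shLucif replicate 2 and ZR751shMLL3 replicate 1, from different cell lines, had 300 regions that the other lists lacked. The ZR751shLucif replicates had 29 such regions and the ZR751shMLL3 replicates 28. The exact palindrome lay in 3 of the 29 (10.3%, 95% Wilson interval 3.58 to 26.4%), in 12 of the 28 (42.9%, 26.5 to 60.9%) and in 51 of the 300 (17.0%, 13.2 to 21.7%). It lay in 0.405% of the regions from 1 list.

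The 127 shared regions had median ranks of 96 and 76 in ZR751shLucif and of 84 and 79 in ZR751shMLL3. The exact palindrome lay in 46 of them (36.2%) and a palindrome with up to 1 mismatch in 104 (81.9%). By annotation, 67 were intergenic, 50 were in introns, 6 in exons and 4 within 1 kb of a start site. Across the 127 sites, the Spearman correlation of the ranks was 0.723 between the ZR751shMLL3 replicates and 0.550 between the ZR751shLucif replicates, and 0.479 to 0.524 between samples of different cell lines. Pearson's correlation of the log2 ranks was 0.694 and 0.591 for these replicate pairs and 0.479 to 0.596 between cell lines, with the highest of the latter between ZR751shLucif replicate 2 and ZR751shMLL3 replicate 1. These correlations describe sites chosen for a high rank in every list, which are not independent replicates.

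The estrogen response element followed the same course by rank. Of the first 100 peaks, 31 and 28% held the exact palindrome within 100 bp of the summit in ZR751shLucif, and 40 and 42% in ZR751shMLL3. The 95% Wilson intervals, which cover counting error only, ran from 20.1 to 40.6% in ZR751shLucif and from 30.9 to 51.8% in ZR751shMLL3. The ZR751shMLL3 samples were both above the ZR751shLucif samples, by 11.5 percentage points between the means of 29.5% ± 2.12 and 41.0% ± 1.41 (SD, n = 2 each; two-sided p = 0.333, exact permutation test, the smallest possible). The first 100 peaks were singled out after the values were seen. At ranks 101 to 500 the shares were 2.25 and 13.8% in ZR751shLucif and 18.0 and 4.50% in ZR751shMLL3, so the cell lines overlapped. At ranks 2001 to 5000 they were 0.3 to 0.9%, and at positions 1000 bp to either side of the summits 0 to 3 of 10000 sequences held the palindrome. With up to 1 mismatch allowed, 64 and 75% of the first 100 peaks had a match in ZR751shLucif, against 74 and 82% in ZR751shMLL3.

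**Figure D2:**
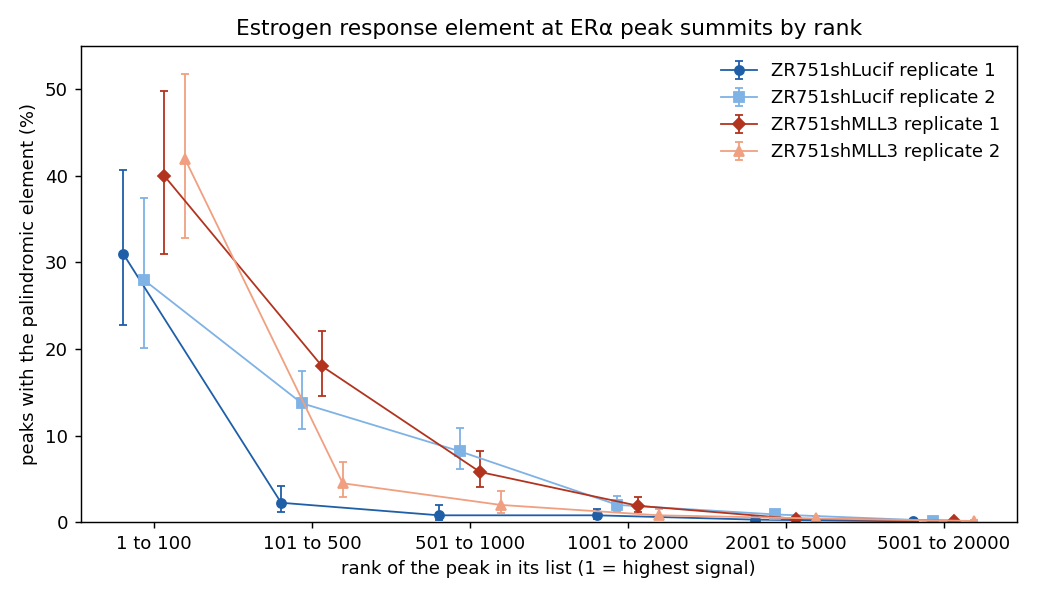
Percent of ERα peaks with the exact palindrome within 100 bp of the summit, by rank, for the 4 samples, with 95% Wilson intervals for counting error. Both ZR751shMLL3 samples lie above both ZR751shLucif samples at ranks 1 to 100, whereas at ranks 101 to 500 the order is ZR751shMLL3 replicate 1, ZR751shLucif replicate 2, ZR751shMLL3 replicate 2 and ZR751shLucif replicate 1.

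Over all 5000 top-ranked peaks, the palindrome share was 1.22 and 3.42% in ZR751shLucif and 3.44 and 1.82% in ZR751shMLL3. The means were 2.32% ± 1.56 and 2.63% ± 1.15 (SD, n = 2 each), and the difference of 0.31 percentage points was smaller than the spread between replicates (two-sided p = 0.667, exact permutation test). Within 1 library series, that is without ZR751shLucif replicate 2, the difference was 1.41 percentage points. Without ZR751shLucif replicate 1 it was -0.79 and without ZR751shMLL3 replicate 1 it was -0.5.

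ERα peaks lay at promoters in few cases in every sample. Of the 5000 top-ranked peaks, 1.84 and 3.48% lay within 1 kb of a protein-coding start site in ZR751shLucif and 1.66 and 1.24% in ZR751shMLL3. The cell lines did not overlap, with means of 2.66% ± 1.16 and 1.45% ± 0.297 (SD, n = 2 each) and a difference of -1.21 percentage points (two-sided p = 0.333, exact permutation test, the smallest possible). In ZR751shLucif replicate 2, 8.60% of the peaks at ranks 501 to 1000 were at promoters, against 1.00 to 2.80% in the other 3 samples. Within 1 library series the difference was -0.39 percentage points. Introns held 41.5 to 43.5% and intergenic sequence 51.1 to 53.9% of the top-ranked peaks in the 4 samples.

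No single site was called as different between the cell lines by the fit across all sites. Of the merged regions, 788 had a mean log2 rank of at most log2 of 20000 and were tested, and limma called 0 of them (0%) at an adjusted p of 0.05, with 27 at an unadjusted p under 0.05. The median standard error of a difference was 3.70 on the log2 rank scale, which is the precision that 2 samples per cell line gave. The rank numbers of both ZR751shMLL3 samples were below those of both ZR751shLucif samples at 95 regions (12.1%), and above them at 114 (14.5%). Without ZR751shLucif replicate 2, which leaves the samples of 1 library series, limma called 231 of 1178 regions, 16 stronger in ZR751shMLL3 and the rest in ZR751shLucif. At 203 of the 231, both ZR751shMLL3 samples stood at the limit of 150000 set for unlisted sites, where a pair has no spread by construction.

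The regions on either side of this comparison differed in sequence. This comparison was chosen after the values were seen. The exact palindrome lay in 46 of the 95 regions that ranked higher in both ZR751shMLL3 samples (48.4%, 95% Wilson interval 38.6 to 58.3%). It lay in 14 of the 114 that ranked higher in both ZR751shLucif samples (12.3%, 7.46 to 19.6%). The median widths of the regions were 302 and 286 bp, and within 100 bp of the region centres the shares were 41.1 and 8.77%. In the same regions moved by 1000 bp the palindrome lay in 0. With each sample left out in turn, the share stayed higher among the regions that ranked higher in ZR751shMLL3. It was 28.0 against 8.02% without ZR751shLucif replicate 1, 25.2 against 4.31% without ZR751shLucif replicate 2 and 25.8 against 8.75% without ZR751shMLL3 replicate 2. Without ZR751shMLL3 replicate 1 it was 13.8 against 10.1%, and the intervals overlapped. These runs reuse samples of the main comparison. The intervals count regions and not samples, so they do not measure the spread between samples. Promoters made up 0 of the 95 and 6 of the 114 regions (5.26%). Over all 788 tested regions, promoters made up 33 (4.19%) and the exact palindrome lay in 165 (20.9%).

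Of the 165 tested regions with the exact palindrome, 118 (71.5%) had the lower mean log2 rank in ZR751shMLL3, that is the stronger peak. Of the 292 regions with 1 mismatch the number was 147 (50.3%), and of the 331 regions with more mismatches it was 124 (37.5%). Among the 127 regions shared by all lists the numbers were 32 of 46 with the exact palindrome and 35 of 81 without. In ZR751shLucif replicates 1 and 2 the regions with the palindrome had median ranks of 56126 and 503, and those without it 44003 and 531. In ZR751shMLL3 replicates 1 and 2 the medians were 313 and 2825 with the palindrome and 731 and 83382 without. On the log2 scale the median rank with the palindrome minus that without was -1.22 and -4.88 in ZR751shMLL3 and 0.35 and -0.08 in ZR751shLucif. These gaps did not overlap between the cell lines. They come from the same regions and ranks as the comparison by direction above, were also computed after the values were seen, and are no separate evidence. The part of list contrast and library series in this difference was not tested.

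**Figure D3:**
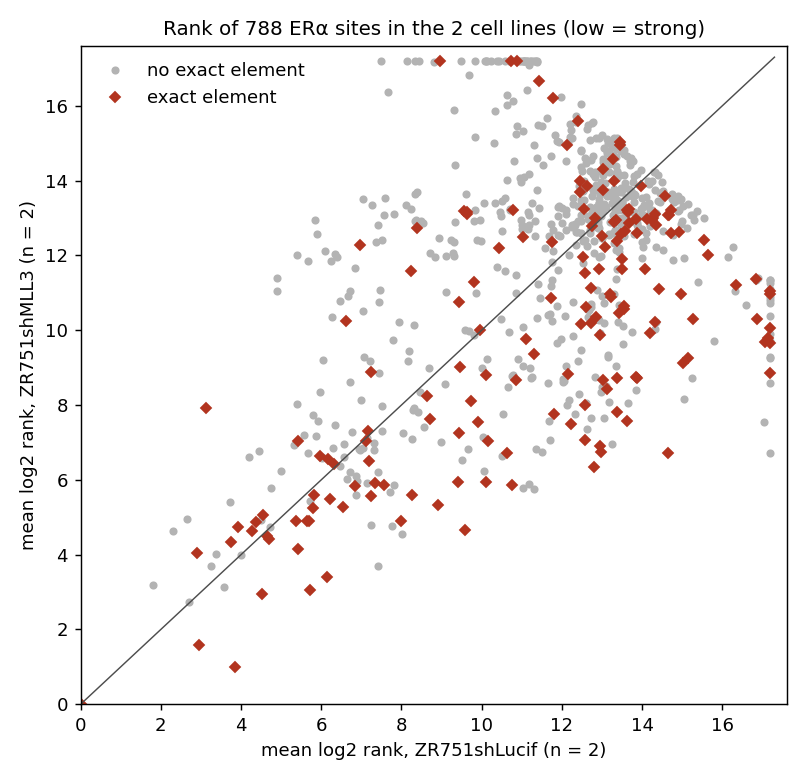
Mean log2 rank of the 788 tested ERα sites in ZR751shLucif (x axis) and ZR751shMLL3 (y axis), n = 2 samples each, with sites that hold the exact palindrome as red diamonds and the others as grey circles. Points below the line are stronger in ZR751shMLL3, which holds for 118 of the 165 palindrome sites and 271 of the 623 others, and the rows of points near the upper and right edges are sites not among the first 150000 peaks of either sample.

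The sites with the largest differences were near the top of both lists of 1 cell line and far down the lists of the other, mostly beyond rank 150000 or not listed. They were chosen by this difference, so their ranks are a description. A region was taken where both samples of a cell line had it among their 5000 top-ranked peaks and the cell lines did not overlap, which held for 84 regions in ZR751shLucif and 81 in ZR751shMLL3. The site in an intron of HTT, the gene of huntingtin, was at ranks 90 and 360 in ZR751shLucif. In neither ZR751shMLL3 sample was it among the first 150000 peaks. The intronic NOD2 site, in the gene of an innate immune receptor, was at ranks 93 and 860 in ZR751shLucif, and the RAPGEF6 site, in a Rap exchange factor gene, at 362 and 289. Neither was among the first 150000 in ZR751shMLL3. An intronic BCL2 site, in the gene of an inhibitor of apoptosis, was at ranks 132 and 314 in ZR751shLucif and at 48551 and beyond 150000 in ZR751shMLL3. The intronic DNAH14 site, in a dynein heavy chain gene, was at ranks 381 and 657, and its RNA measured 14.5 and 16.9 FPKM in ZR751shLucif, against 9.33 and 8.08 in ZR751shMLL3. The other 3 sites on this side lay near NUDCD1, PLEKHA6 and CDYL2, of which the NUDCD1 site alone, 66 bp from a start site, was at a promoter. NUDCD1 RNA was also lower in ZR751shMLL3, at 5.22 and 6.95 FPKM against 8.23 and 7.61 in ZR751shLucif. In RNA of HTT, NOD2, RAPGEF6, BCL2, PLEKHA6 and CDYL2 the cell lines overlapped.

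In ZR751shMLL3, the intronic ASIC2 site, in an acid-sensing ion channel gene, was at ranks 182 and 61. The HPSE2 site, in an intron of the heparanase 2 gene, was at ranks 366 and 576. The PLOD2 site, in an intron of a lysyl hydroxylase gene, was at ranks 538 and 1219. None of these 3 was listed in either ZR751shLucif sample. The intergenic site 126510 bp from DNAJC15, a mitochondrial co-chaperone, was at ranks 156 and 70 in ZR751shMLL3 and at 56126 and 11630 in ZR751shLucif. The other 3 sites lay near FAM184A, ZNF595 and PAPPA2. RNA of ASIC2, HPSE2 and PAPPA2 was below 0.5 FPKM in all 4 RNA samples, and PLOD2 RNA was at 9.58 and 17.9 FPKM in ZR751shLucif and 24.4 and 18.6 FPKM in ZR751shMLL3. FAM184A RNA was lower in ZR751shMLL3, at 0.40 and 0.48 FPKM against 0.91 and 0.62 in ZR751shLucif. In DNAJC15 RNA the cell lines overlapped. The exact palindrome was present in 3 of the 7 regions described on this side (HPSE2, DNAJC15 and PLOD2) and in 1 of the 8 on the ZR751shLucif side (DNAH14). At these 15 sites, the adjusted p from limma was 1.

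**Figure D4:**
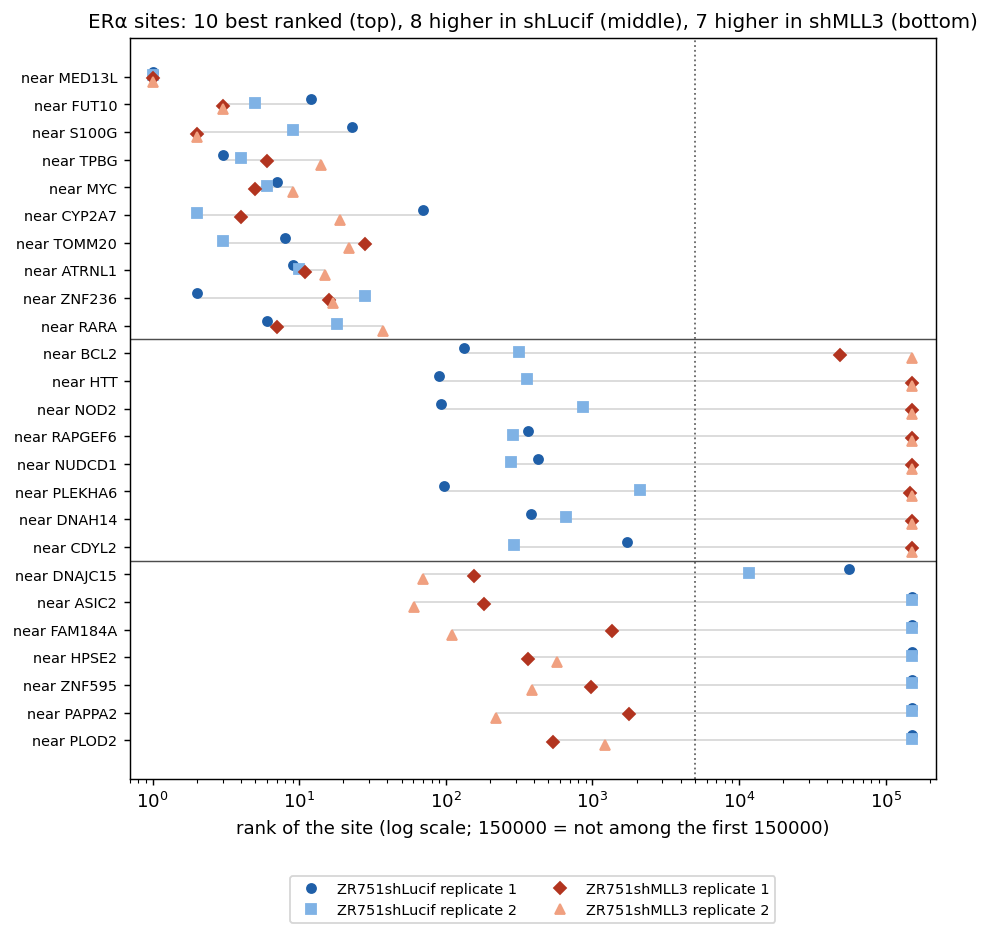
Rank of named ERα sites in each of the 4 samples on a log scale, with the 10 sites of best mean rank at the top, the 8 sites with the largest difference towards ZR751shLucif in the middle and 7 towards ZR751shMLL3 at the bottom. The 10 best sites are within rank 70 in every sample, whereas the sites in the lower blocks were chosen for their difference and stand between ranks 61 and 2109 in 1 cell line and at rank 11630 or beyond in the other.

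More of the estrogen-responsive genes had a top-ranked ERα peak nearby than of all genes, in every sample, while 12 of the 40 had none in any. The list was chosen with earlier results of these data known, so this excess is a description and no independent support. Of the 40 genes, 14 and 24 had one of the 5000 top-ranked peaks within 50 kb of a start site in ZR751shLucif, and 18 and 16 had one in ZR751shMLL3. Over all 19785 protein-coding genes the share was 14.3 and 12% in ZR751shLucif and 10.5 and 13.6% in ZR751shMLL3, against 35, 60, 45 and 40% for the list. The means of 19 ± 7.07 and 17 ± 1.41 genes (SD, n = 2 each) differed by -2 genes, which was within the spread of ZR751shLucif (exact permutation test, two-sided p = 1). Within 1 library series the difference was 3 genes, in the other direction. With the 100 top-ranked peaks alone, 8 and 9 of the 40 genes in ZR751shLucif and 8 and 4 in ZR751shMLL3 had a peak, against 0.364 to 0.627% of all genes. None of 14 luminal transcription factor genes, 14 coregulator genes, 16 housekeeping genes or 16 genes of other lineages had one.

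The genes with a peak among the 100 top-ranked in all 4 samples were GREB1, CTSD, SIAH2 and RARA. GREB1, an estrogen-induced regulator of growth, had its best peak at ranks 11 and 64 in ZR751shLucif and at 20 and 35 in ZR751shMLL3, in an intron. SIAH2, a ubiquitin ligase, had its best peak within 50 kb at ranks 37 and 31 in ZR751shLucif and at 36 and 25 in ZR751shMLL3. The intronic SIAH2 site shown above was at ranks 37 and 46 in ZR751shLucif and at 36 and 25 in ZR751shMLL3, without overlap (limma, adjusted p = 1). By the best peak within 50 kb, the cell lines overlapped at GREB1, SIAH2 and RARA. CTSD, the lysosomal protease cathepsin D, was at ranks 5 and 8 in ZR751shLucif and at 19 and 51 in ZR751shMLL3, without overlap. Its difference of 2.30 ± 1.82 (SE) on the log2 rank scale did not pass the fit over all genes (adjusted p = 0.991, limma).

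Of the 40 genes, 11 had a peak among the 5000 top-ranked in all 4 samples, against 1.05% of all genes. Among them, IGFBP4, which binds insulin-like growth factors, was at ranks 204 and 38 in ZR751shLucif and at 67 and 101 in ZR751shMLL3. ADCY9, an adenylate cyclase, was at ranks 19 and 53, and at 46 and 125. FKBP4, a co-chaperone of steroid receptors, was at ranks 1800 and 39 in ZR751shLucif and at 72 and 321 in ZR751shMLL3, and XBP1, a factor of the unfolded protein response, at 547 and 74 and at 142 and 389. In each of these 4 genes the cell lines overlapped. Ranks did not overlap at EGR3, a zinc finger transcription factor, which was at ranks 78 and 131 in ZR751shLucif and at 249 and 4873 in ZR751shMLL3. The same held for NHERF1, a scaffold protein, at ranks 63 and 125 and at 362 and 4798. It also held for IL20, a cytokine gene whose site lies in an exon of the neighbouring IL24, at ranks 39 and 12 and at 48 and 245. Differences on the log2 rank scale were 3.45 ± 1.96, 3.89 ± 1.92 and 2.33 ± 1.87 (SE) for EGR3, NHERF1 and IL20, each with an adjusted p of 0.991 (limma). EGR3 RNA measured 7.15 and 2.27 FPKM in ZR751shLucif, against 16.7 and 24.5 in ZR751shMLL3. In RNA of NHERF1, IL20 and CTSD, whose ranks did not overlap either, the cell lines overlapped.

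Other genes had a strong peak in only some samples. MYB, a transcription factor of luminal cells, had a peak at ranks 178, 174 and 270 in ZR751shLucif replicate 2 and ZR751shMLL3 replicates 1 and 2, and at rank 29008 in ZR751shLucif replicate 1. ADORA1, an adenosine receptor, was at ranks 5221 and 333 in ZR751shLucif and 284 and 1791 in ZR751shMLL3. ELOVL2, a fatty acid elongase, was at rank 1837 in ZR751shLucif replicate 1 and at ranks 32121 and 510 in ZR751shMLL3, and its peak in ZR751shLucif replicate 2 was among the first 500. At 5 further genes the top 5000 held a peak in 2 samples: PDZK1, a scaffold protein, at ranks 13090, 153, 2399 and 60998 in ZR751shLucif replicates 1 and 2 and ZR751shMLL3 replicates 1 and 2, CELSR2, an adhesion receptor, at 27215, 1126, 620 and 50323, PKIB at 10098, 2509, 488 and 9656, BCL2 at 6284, 1310, 2181 and 8879, and CCND1, cyclin D1, at 1674, 9724, 1997 and 119605. The samples with the stronger peak at the first 4 of these genes were ZR751shLucif replicate 2 and ZR751shMLL3 replicate 1, which have the lists of higher contrast. For BCL2 this holds within 50 kb only. The intronic BCL2 site described above, at ranks 132 and 314 in ZR751shLucif, lies 77298 bp from the nearest start site. With a window of 100 kb the BCL2 difference was 3.20 on the log2 rank scale, against 0.62 at 50 kb. TFF1, which encodes a secreted trefoil peptide, had no peak better than rank 17816 in any sample, and PGR, the progesterone receptor gene, none better than 12438. MYC had one at rank 2350 in ZR751shLucif replicate 2 and none better than 11081 in the others within 50 kb.

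**Figure D5:**
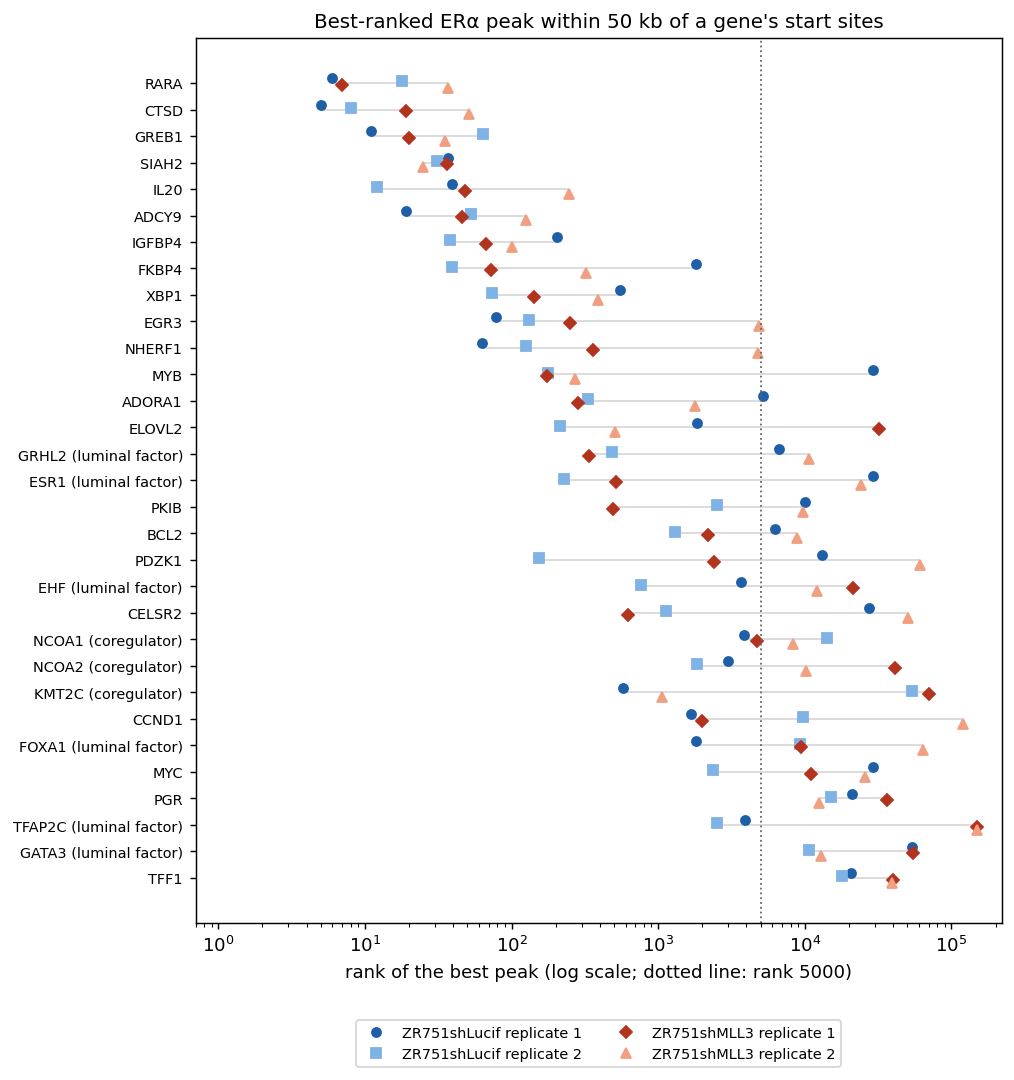
Rank of the best ERα peak within 50 kb of the start sites of 31 named genes in each of the 4 samples, on a log scale, sorted by the mean of the log ranks. From RARA to XBP1 all 4 samples lie within rank 1800, and from MYB downwards the replicates of a cell line can lie far apart, as at ranks 29008 and 178 for MYB in ZR751shLucif.

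Among the luminal transcription factors, ESR1 itself had an intronic site at ranks 228 and 517 in ZR751shLucif replicate 2 and ZR751shMLL3 replicate 1, and its best peak was at ranks 29024 and 24193 in the other samples. GRHL2, a grainyhead factor of epithelial cells, followed the same course, at ranks 6649 and 484 in ZR751shLucif and at 337 and 10753 in ZR751shMLL3. TFAP2C and EHF had a peak among the 5000 top-ranked in both ZR751shLucif samples and in neither ZR751shMLL3 sample. TFAP2C was at ranks 3912 and 2515 in ZR751shLucif and beyond 150000 in both ZR751shMLL3 samples, and EHF at 3669 and 768 and at 21289 and 12160. Of all 19785 protein-coding genes, 258 had this pattern and 204 had the opposite one. None of the 204 was among the 14 luminal genes, a list too short to show a pattern this rare. FOXA1 was at ranks 1807 and 9235 in ZR751shLucif and at 9464 and 63712 in ZR751shMLL3, and GATA3 at 53853 and 10701 and at 54385 and 12935. Of the coregulators, NCOA2 was at ranks 2975 and 1840 in ZR751shLucif and at 41465 and 10166 in ZR751shMLL3, NCOA1 at 3837 and 14127 and at 4697 and 8275, and KMT2C, the targeted gene, at 577 and 54063 and at 70282 and 1058.

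Across all genes the fit gave no difference between the cell lines. Of 7146 genes tested, limma called 0 (0%) at an adjusted p of 0.05, and 243 had an unadjusted p under 0.05. Ranks did not overlap, with the stronger peak in ZR751shMLL3, at 1020 genes (14.3%) and with the stronger peak in ZR751shLucif at 1245 (17.4%). Of the 40 estrogen-responsive genes, 30 passed the filter on rank, with 0 at an unadjusted p under 0.05. The stronger peaks were in ZR751shMLL3 without overlap at 2 genes, STC2 and SERPINA1, and in ZR751shLucif at 5, CTSD, AREG, EGR3, NHERF1 and IL20. The median difference on the log2 rank scale, ZR751shMLL3 minus ZR751shLucif, was 0.71 for these 30 genes and 0.17 for all genes tested. For the luminal factors, 8 of 14 were tested, with 0 genes stronger in ZR751shMLL3 without overlap, 3 stronger in ZR751shLucif (FOXA1, ELF3 and EHF) and a median difference of 0.69. For the coregulators, 7 of 14 were tested, with 1 (PPARGC1B) and 2 (NCOA2 and LCOR) such genes and a median of 0.63.

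H3K4me1, the mark that MLL3 places, had a peak summit near a minority of the shared ERα sites. Equal numbers of H3K4me1 peaks were taken per list, so a loss in the number of H3K4me1 sites, which the paper reports, cannot show here. Sites inside a peak with its summit further away were not counted. A summit among the 50000 top-ranked H3K4me1 peaks lay within 500 bp of 26 and 31 of the 127 sites (20.5 and 24.4%) in the ZR751shLucif samples. In both ZR751shMLL3 samples it lay near 19 of the 127 (15%). At positions moved by 50000 bp the numbers were 2, 6, 4 and 5. The cell lines did not overlap, with means of 22.4% ± 2.78 in ZR751shLucif and 15% in both ZR751shMLL3 samples (n = 2 each; two-sided p = 0.333, exact permutation test, the smallest possible). Over all 788 tested sites the shares were 16.9 and 18.1% in ZR751shLucif and 15 and 16.2% in ZR751shMLL3, also without overlap. Of the best sites at the 11 estrogen-responsive genes with a peak in all 4 lists, 8 had no such summit in any of the 4 H3K4me1 lists. The NHERF1 site had one in 2 ZR751shLucif lists and 1 ZR751shMLL3 list, the IL20 site in 1 and 2, and the SIAH2 site in 0 and 1.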

How the data were processed

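ERα ChIP-seq was analysed in 2 ZR751shLucif and 2 ZR751shMLL3 samples, with the H3K4me1 and SP1 peak lists as context. Per the sample descriptions and methods, the authors aligned reads to hg19 with BWA 0.7.5a-r405, removed duplicates with Picard 1.126 and called relaxed peaks with SPP against 1 input per cell line. For each peak, the deposited lists hold an SPP signal and, as −log10, its FDR. The 5000th peak had an FDR of 0.235, 1.25, 10.9 and 0.451% in ZR751shLucif replicates 1 and 2 and ZR751shMLL3 replicates 1 and 2. In ZR751shLucif replicate 1, 812 peaks were tied at this rank and kept their deposited order. The authors' FPKM values per RefSeq gene, 23501 entries of which 22894 matched a symbol, were used as levels only. Read depth behind single peaks is unknown, and intervals cover counting error only.

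Peaks were taken as 100 bp on each side of the summit and ranked by signal. Regions were merged windows of the 5000 top-ranked peaks, each with its best rank per list, limited to 150000. Log2 ranks were tested with limma 3.58.1 in R 4.3.3, with Benjamini-Hochberg adjustment, on regions or genes with a mean log2 rank of at most log2 of 20000. The steps were tested on simulated data. Single values per sample were compared with exact permutation tests. Annotation and sequence came from GENCODE 44 on GRCh37 (protein-coding genes), read with pysam 0.24.0 in Python 3.11.15. Motifs were searched on both strands.

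Named genes were the estrogen-responsive, luminal factor and coregulator genes with a top-ranked peak within 50 kb in at least 2 samples, with 11 genes named whatever their ranks. Added to these were the genes nearest the 10 best-ranked regions and the 8 regions with the largest difference each way. STC2, SERPINA1, AREG, ELF3, PPARGC1B and LCOR were outside this rule and named after their values were seen. The comparison, lists and members were chosen with earlier results of these data known. Nothing says whether replicates came from separate cultures, beyond being called biological replicates, so p-values measure the spread between these samples. Of the genes and sites this rule names, 1 gene and 1 site are not reported here. Reads, inputs and differential binding on read counts were not analysed here.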

Additional observations from a re-analysis of the deposited data

How the results depend on the processing

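The counts of called regions and genes stayed at 0 under every alternative run, except that leaving out 1 sample gave 0 to 231 regions, with 231 without ZR751shLucif replicate 2. The promoter difference kept its sign under all alternatives. The palindrome difference was -0.55 percentage points with 1 mismatch allowed, and leaving out 1 sample gave -0.79 to 1.41. The difference in estrogen-responsive genes was -7 to 3 with 1 sample left out. The cause of these changes was not tested. Deviations of same-numbered samples correlated at -0.33 across regions and -0.21 across genes, so ranks did not go together by replicate number. The contrast of the lists runs crosswise to these numbers. The correlation therefore cannot show whether same-numbered samples were prepared together. A replicate block was not run for the promoter, palindrome and gene differences, since in this balanced layout it cannot change them. With the replicate number as a block in limma, 0 regions and 0 genes were called. A crossed pairing, chosen after seeing the data like the 100 and 500 top-ranked peaks, also called 0 of both. Gene ranks do not use a number of top-ranked peaks, so those alternatives gave no value for genes. Of 562 values at named genes and sites, 537 moved by less than the spread between replicates. Leaving out 1 sample can hardly move a value further than this spread, by the way the spread is computed. The number of top-ranked peaks also leaves the rank of a site unchanged unless regions merge differently. This count is therefore no measure of stability. At 32 named genes the direction changed for 7 at 10 kb and for 6 to 10 with 1 sample left out. Peaks below rank 1000 were hardly shared between samples, which limits what the lists can show.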

Other observations

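Other motifs were less marked at ERα summits than the palindrome. The forkhead motif TGTTTAC was found at 5.20 and 8.60% of the first 500 peaks (within 100 bp of the summit) in ZR751shLucif and at 7.60 and 6.80% in ZR751shMLL3, against 3.33 to 3.66% at flanking positions. The GATA motif AGATAA lay at 18.0 and 22.2% in ZR751shLucif and at 15.2 and 20.8% in ZR751shMLL3, against 15.6 to 17.5% at flanking positions. The AP-1 motif TGANTCA lay at 6.60 to 8.20% of these peaks and at 6.45 to 6.83% of flanking positions, and the SP1 motif GGGCGG at 1.60 to 4.20% and at 1.93 to 2.37%. The cell lines overlapped in each of these shares.

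Summits among the 5000 top-ranked SP1 peaks of the same cell line lay within 200 bp of 1.00% of the 100 top-ranked ERα peaks in both ZR751shLucif samples, and of 7.00 and 4.00% in ZR751shMLL3 replicates 1 and 2. At ranks 101 to 500 the shares were 0.500% in both ZR751shLucif samples and 1.00 and 1.25% in ZR751shMLL3. These shares rest on few peaks, and no shifted positions were counted as a background. The paper's reproducibility counts for SP1 peaks differed widely between samples. The part of SP1 list quality in this difference was not tested. The mean GC content within 100 bp of the summit was 43.7 to 44.8% for the 100 top-ranked peaks of the 4 samples and 34.3 to 37.7% at ranks 2001 to 5000.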
